A study of Mus musculus with 12 samples.

Results

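Fkbp5, Sgk1, Tsc22d3, Klf15, Klf9, Cebpb, Cebpd, Zbtb16 and Ddit4 are genes that glucocorticoids are known to switch on in muscle and other tissues. They were chosen by name, as every probe whose platform symbol was 1 of these 9, out of 19057 genes named on the array, and they had 12 of its 45281 probes. Gene expression had been measured in skeletal muscle (titled Gastr) of transgenic (TG) mice that overexpress the orphan nuclear receptor Nur77 in skeletal muscle, and of wild-type (WT) mice, with RNA prepared after an overnight fast in both genotypes. RNA of 2 mice was combined per pool, which gave 3 TG and 3 WT pools from 6 mice of each genotype, and, per the labels, every pool was hybridised in 1 colour to both of 2 Illumina chips. The promoter that drives the transgene, the founder line, and the strain, age and sex of the mice are not given in the sources used here.

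Glucocorticoids, the steroid hormones of the adrenal cortex, bind the glucocorticoid receptor (Nr3c1) in the cytoplasm, which then leaves its Hsp90 chaperone complex, enters the nucleus and binds response elements in DNA. In muscle their level rises with fasting and stress, and the receptor raises genes that slow protein synthesis, promote protein breakdown and release amino acids. The genes described here act at several steps of that response: Fkbp5 feeds back on the receptor, Ddit4 and Sgk1 act on growth signalling, and Klf15, Klf9, Cebpb, Cebpd, Zbtb16 and Tsc22d3 regulate transcription.

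Signals below are deposited probe intensities, averaged over the 2 arrays of a pool, and log2 values are those of the normalised data that were tested (n = 3 pools per genotype). Between 17607 and 19118 probes per array were detected, with a detection p below 0.05, and the 15708 probes that were detected throughout TG or throughout WT (6 of 6 arrays) entered the limma test. The number of pools limits the precision. Nr4a1, which encodes Nur77, gave no check of the labels, since its probe was detected on 0 of 6 TG arrays and 0 of 6 WT arrays. Signals of 10 probes for 8 skeletal muscle genes such as Ckm and Acta1 summed to 347174 to 361952 in TG pools and 294979 to 326015 in WT pools, and all 8 were detected; Myh1 (0.36) and Pvalb (0.24) rose and Myh4 (-0.22) fell on the log2 scale.

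Some arrays stood apart from the others. After removal of the mean of each genotype and chip, TG3 lay 0.30 and 0.32 log2 units (root mean square over the probes tested) from the nearest array of another TG pool on the other chip, against 0.17 for each of the other TG arrays. Among WT arrays the distance to the nearest array of another WT pool was 0.17 to 0.23, largest for WT1 on chip 2. TG3 also had the highest summed signal of 16 macrophage and leukocyte probes (9514, against 1906 in TG1 and 2150 in TG2), and WT1 the highest in WT (4451, against 1197 in WT2 and 1161 in WT3). The satellite cell markers summed to 394.2 in TG3 (109.7 and 162.2 in TG1 and TG2, against 85.1 to 109.7 in WT), and the fibroblast markers to 38940 in TG3 (29619 and 30138 in TG1 and TG2, against 29197 to 30845 in WT). Of the 4 satellite cell genes Pax7 and Myf5 were undetected on all arrays, and Myod1 had no probe that entered the test. Only Myog was tested, and its 2 probes differed between TG and WT by -0.07 and 0.62 (log2). For 6 of the 12 arrays the nearest array of the same genotype on the other chip belonged to the same pool, and the correlation between arrays of 1 pool that duplicateCorrelation estimated over all tested probes was 0.14. The labels call the 2 arrays of a pool technical repeats of the same RNA, which was not tested; n and the spread between pools rest on it. The deviations of the 2 arrays were most alike in TG3 (r = 0.57 across probes, which are not independent). In TG1 and TG2 r was 0.38 and 0.32, and in WT1, WT2 and WT3 it was 0.06, 0.11 and -0.03. The values of each chip are therefore given beside the results.

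In TG muscle 3 of the 9 genes, Klf9, Cebpb and Klf15, fell past the threshold (an adjusted p of 0.05 by limma), none rose past it, and 6 did not pass. Of the 12 probes 11 passed the filter on dim probes, and 3 of these 11 were called, all lower in TG. Over all tested probes 25.8% were called in either direction, 14.6% lower and 11.3% higher, so the share of members called in either direction was near that of all probes. Of the 4059 calls 1771 were higher in TG. Higher probes were 33.5% of the calls with 75th percentile scaling and 51.1% with cyclic loess, and Klf9, Cebpb and Klf15 were the members called in both. The log2 difference between TG and WT was negative at 11 of 11 kept member probes, against 53.5% of all tested probes, and its median was -0.26, against -0.02 over all probes. Without TG3 it was negative at 8 of 11 probes with a median of -0.09, and on chip 1 alone at 8 of 11 with a median of -0.18. TG3 was the lowest of the 6 pools at 9 of the 11 member probes (81.8%), against 33.5% of all tested probes, and the part that its marker levels have in these values was not tested. The signals of endothelial markers summed to 2948 to 3084 in TG and 2438 to 2643 in WT, without overlap, as for the skeletal muscle markers. Of 5 tested endothelial genes 2 rose (Pecam1 by 0.35 and Emcn by 0.30, log2), where 12.1% of all genes were called higher. Pecam1 was called at 1 of 3 kept probes, which ranged from -0.08 to 0.35. Cdh5 did not pass at its brightest probe (0.32) but was called higher at the other of its 2 kept probes (0.44). Tek and Tie1 did not pass. The part of endothelial markers in the members' differences was not tested either. Bulk signals cannot tell fewer cells of a type from less RNA per cell.

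**Figure D1:**
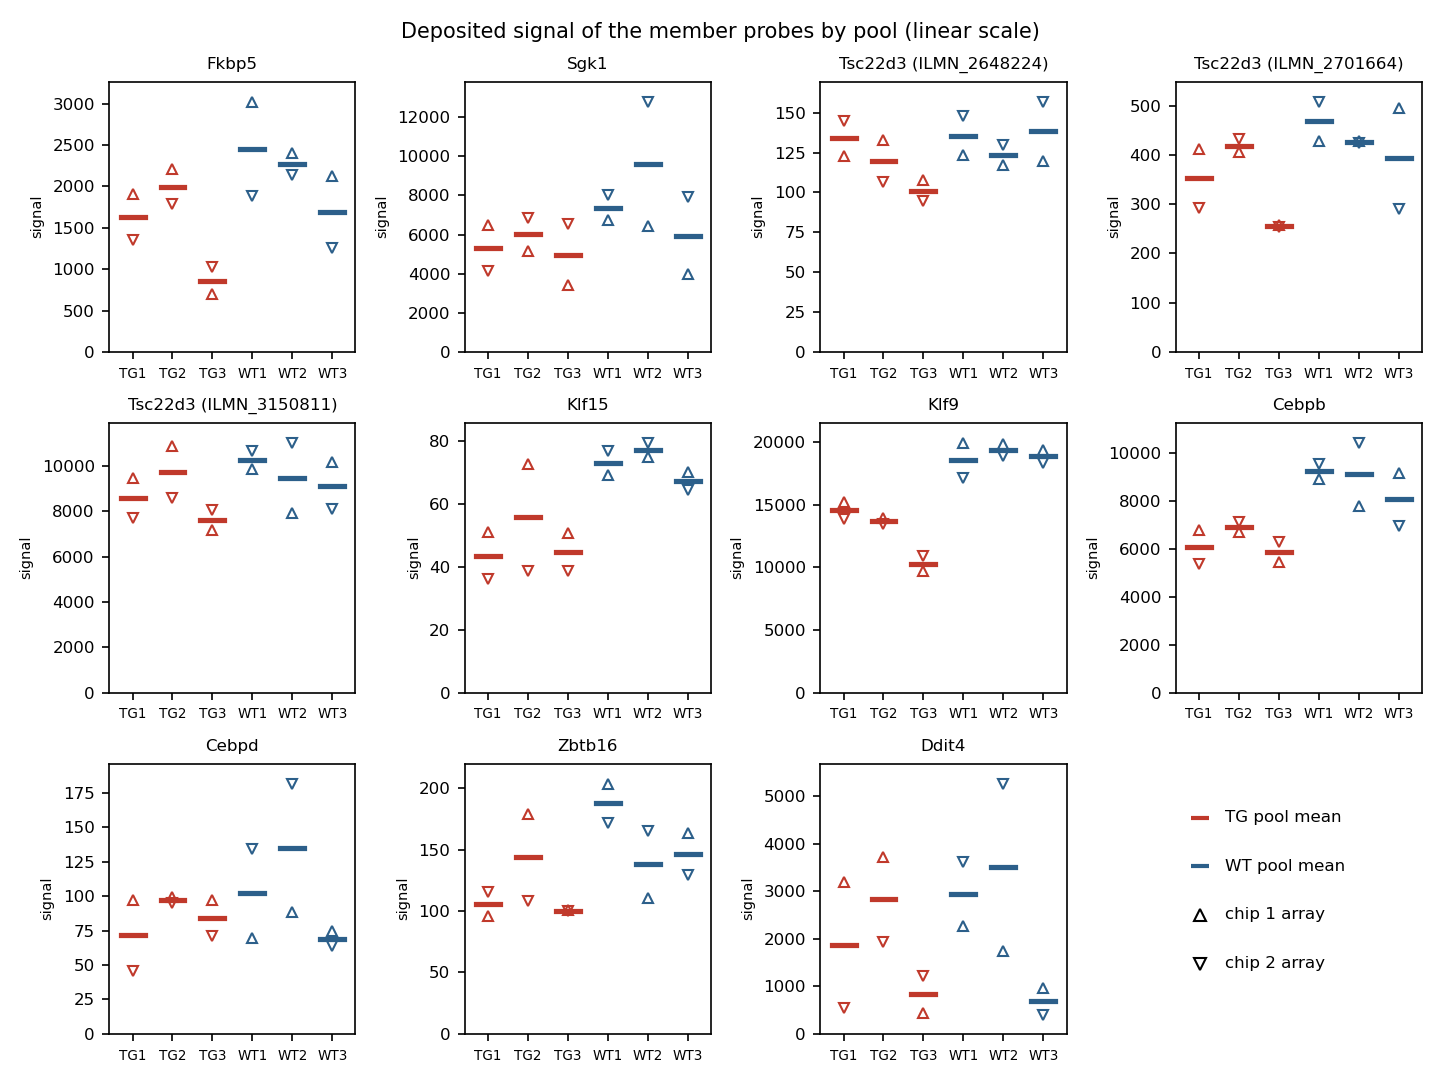
Deposited signal (linear scale, each panel from 0) of the 11 kept member probes in the 3 TG and 3 WT pools; triangles are the arrays of chip 1 (upward) and chip 2 (downward), and the line is their mean. The TG lines lie below all WT lines for Klf15, Klf9 and Cebpb, and the 2 arrays of a pool lie far apart for Ddit4.

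Klf9, a Krüppel-like zinc finger factor that glucocorticoids induce directly, had the smallest p of the members. Its signal was 14553, 13703 and 10300 in TG1, TG2 and TG3, against 18524, 19351 and 18851 in WT1, WT2 and WT3. Every TG pool lay below every WT pool, and TG3 was the lowest. The 3 called members were the ones whose genotypes did not overlap, which held for 45.2% of all tested probes in either direction and for 25.7% with TG lower. On the log2 scale the difference was -0.61 ± 0.12 (SE), with an adjusted p of 0.0103 by limma, that is, Klf9 fell by 34.5%. It was -0.66 on chip 1 and -0.56 on chip 2, and -0.46 without TG3. The 2 arrays of a pool differed by at most 0.19 log2 units for Klf9, which placed it among the more repeatable probes (percentile 8.9 of the largest such difference over all tested probes). In the authors' deposited table the difference of -0.55 did not pass (adjusted p = 0.0929 by limma).

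Cebpb, a leucine zipper factor that acts in fat cell formation, liver gluconeogenesis and the acute-phase response, had signals of 6085, 6934 and 5888 in TG1, TG2 and TG3, against 9253, 9118 and 8085 in the WT pools in the same order. The genotypes did not overlap, and the highest TG pool, TG2, lay below the lowest WT pool, WT3. Cebpb fell by 25.4% (log2 difference -0.42 ± 0.09, SE, adjusted p = 0.0130 by limma), with -0.39 on chip 1 and -0.46 on chip 2. The call was lost without WT2 (-0.40, adjusted p = 0.0580), on chip 2 alone (adjusted p = 0.126) and in the authors' deposited table (adjusted p = 0.0597). Macrophages and fat cells also express Cebpb. The macrophage and leukocyte markers had 0 of 5 tested genes called, with summed signals of 1906 to 9514 in TG and 1161 to 4451 in WT, and Ptprc and Itgam were undetected on all arrays. The adipocyte markers had 0 of 2 called, with sums of 491.8 to 1059 in TG and 508.5 to 646.9 in WT, and Fabp4 was undetected; their part in the Cebpb result was not tested.

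Klf15, the Krüppel-like factor that raises amino acid breakdown in muscle, was dim, with signals of 43.6, 55.7 and 44.8 in TG1, TG2 and TG3, against 72.8, 77.1 and 67.3 in the WT pools in the same order. All TG pools lay below all WT pools. Its mean signal was 48.0 ± 6.70 in TG and 72.4 ± 4.91 in WT (SD, n = 3 each), a ratio of 0.66, while the log2 difference of the normalised values, which background correction compresses for dim probes, was -0.28 ± 0.08 (SE, adjusted p = 0.0359 by limma). It was -0.61 in the authors' deposited table. The difference was -0.18 on chip 1, where TG2 read 72.6 (WT arrays 69.0 to 74.8), and -0.37 on chip 2. With single pools left out the call held only without TG2 (adjusted p = 0.0388) and was lost without TG1, TG3, WT1, WT2 or WT3 (0.0596 to 0.130), and it was lost on chip 1 alone (adjusted p = 0.258).

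The promoters of these 3 genes are shown because they were lower in all TG pools. In the RefSeq sequences (GRCm38.p6), 7 of the 9 genes matched 14 promoters of 250 bases before to 50 bases after a start site; Cebpd and Zbtb16 had no entry. Capitals mark CACGTG, the E-box bound by clock factors, in Klf15 and TGACG, one arm of the cAMP response element, on either strand in Klf9 and Cebpb. Klf15 also holds TGACG, at -78 and, on the other strand, at -6, where it is not marked.
Klf9 (chr19:23140976-23141275, + strand): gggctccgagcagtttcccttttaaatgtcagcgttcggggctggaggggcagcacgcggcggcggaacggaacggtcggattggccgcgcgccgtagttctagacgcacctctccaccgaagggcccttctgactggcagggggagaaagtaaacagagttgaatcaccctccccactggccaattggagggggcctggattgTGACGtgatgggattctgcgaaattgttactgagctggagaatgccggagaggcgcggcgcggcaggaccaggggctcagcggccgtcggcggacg
Cebpb (chr2:167688665-167688964, + strand): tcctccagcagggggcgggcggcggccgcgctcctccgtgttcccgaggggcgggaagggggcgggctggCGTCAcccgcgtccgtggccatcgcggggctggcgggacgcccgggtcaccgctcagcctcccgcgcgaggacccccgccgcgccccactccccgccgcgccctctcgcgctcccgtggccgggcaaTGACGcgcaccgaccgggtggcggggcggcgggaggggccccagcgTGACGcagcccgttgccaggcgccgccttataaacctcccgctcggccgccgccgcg
Klf15 (chr6:90462326-90462625, + strand): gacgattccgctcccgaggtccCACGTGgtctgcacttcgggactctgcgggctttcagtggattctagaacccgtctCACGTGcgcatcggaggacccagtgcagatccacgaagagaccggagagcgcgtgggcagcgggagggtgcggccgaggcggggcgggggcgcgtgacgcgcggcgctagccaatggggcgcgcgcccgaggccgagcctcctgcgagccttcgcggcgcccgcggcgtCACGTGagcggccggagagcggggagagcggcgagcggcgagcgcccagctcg
Klf15 held CACGTG at positions -228, -172 and -3 from the start site. The motif was in 3 of the 14 member promoters, also those of Fkbp5 and Sgk1, neither of which passed. Of 32851 promoters 7.15% held this motif at all and 29 (0.0883%) held it at least 3 times, a cut-off taken from Klf15 itself. The copy at -3 overlaps a TGACG match on the other strand. CACGTG and TGACG contain CG, and the Klf15, Cebpb and Klf9 windows held 47, 50 and 28 CG, against a median of 7 over all promoters. The shares of all promoters are not matched for this. TGACG, searched on both strands, was in 5 of the 14 member promoters and in 20.8% of all. The full cAMP response element TGACGTCA (1.79% of all promoters) and AAAGGTCA, the NBRE to which Nur77 binds as a monomer (1.51%), had no match in the 14 windows.

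Sgk1, the serum- and glucocorticoid-regulated kinase that acts on ion channels and nutrient transport downstream of insulin, had signals of 5310, 6011 and 4973 in TG1, TG2 and TG3, against 7368, 9602 and 5940 in the WT pools in the same order. TG2 lay above WT3, so the genotypes overlapped. Its log2 difference of -0.39 ± 0.17 (SE) did not pass (adjusted p = 0.124 by limma, interval -0.78 to -0.00), with -0.11 on chip 1 and -0.67 on chip 2. It passed without WT3 (-0.56, adjusted p = 0.0392), but was -0.22 without WT2 (0.344) and -0.22 with WT3 taken from its chip 1 array only (0.578), a setting chosen after seeing the data. The 2 arrays of WT2 read 6410 on chip 1 and 12795 on chip 2, a 2.10-fold difference after normalisation, at percentile 97.9 of the largest such difference per probe. 

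The glucocorticoid response element was sought as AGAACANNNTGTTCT, and as its single arm AGAACA, on both strands. The full palindrome was in 3 of 32851 promoters (0.00913%), 1 of them a promoter of Sgk1, in which it is in capitals here.
Sgk1 (chr10:21993640-21993939, + strand): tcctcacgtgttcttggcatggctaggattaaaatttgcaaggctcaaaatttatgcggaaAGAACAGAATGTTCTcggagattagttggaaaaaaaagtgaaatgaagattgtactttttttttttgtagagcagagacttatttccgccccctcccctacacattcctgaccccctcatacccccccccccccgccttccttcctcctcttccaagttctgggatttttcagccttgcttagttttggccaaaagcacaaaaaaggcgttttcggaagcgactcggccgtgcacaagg
The palindrome begins at position -189 of this start site, which is 1 of 6 listed for Sgk1. The single arm was in 4 of the 14 member promoters, of Sgk1 and Tsc22d3, and in 19.0% of all promoters. The full element had no match in the other 13 windows, which are short and leave out introns and distant elements.

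Fkbp5, an Hsp90 co-chaperone that lowers the receptor's affinity for hormone and is itself induced by it, read 1631, 1997 and 861 in TG1, TG2 and TG3, against 2453, 2272 and 1692 in the WT pools in the same order. TG3 was far below the other pools, and TG2 lay above WT3. The log2 difference of -0.45 ± 0.29 (SE) did not pass (adjusted p = 0.284 by limma, interval -1.12 to 0.22), and without TG3 it was -0.09. On chip 1 it was -0.69 and on chip 2 -0.21.

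Ddit4, also called REDD1, restrains mTORC1, the kinase complex that drives protein synthesis, and is induced by glucocorticoids, hypoxia and fasting. Its signals were 1875, 2824 and 828 in TG1, TG2 and TG3, against 2940, 3500 and 683 in the WT pools in the same order. Pools of each genotype spread over more than the genotypes differed, and WT3 was the lowest of all. The arrays of single pools disagreed as well: TG1 read 3202 on chip 1 and 549 on chip 2, WT2 1739 and 5260, and TG3 449 and 1208. After removal of the mean of each genotype and chip, the standard deviation between arrays of a pool was 1.16 log2 units. That of the pool means within a genotype was 1.07. The largest difference within a pool, 4.93-fold in TG1, was at percentile 99.8 of all tested probes. The genotype difference was -0.25 ± 0.62 (SE, adjusted p = 0.789 by limma, interval -1.68 to 1.18). It was 0.24 on chip 1 and -0.74 on chip 2, and it turned positive without TG3 (0.20), WT1 (0.07) or WT2 (0.12), so no direction could be given for Ddit4.

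Tsc22d3, the glucocorticoid-induced leucine zipper that binds and restrains inflammatory transcription factors, had 3 probes, and none passed. The brightest read 8573, 9715 and 7598 in TG1, TG2 and TG3, against 10235, 9470 and 9120 in the WT pools in the same order. TG2 lay above WT2 and WT3, and TG3 was the lowest pool. Its log2 difference was -0.13 ± 0.10 (SE, adjusted p = 0.369 by limma, interval -0.37 to 0.10), with 0.0014 on chip 1 and -0.27 on chip 2. The other probes differed by -0.19 ± 0.16 and -0.08 ± 0.11, and both turned positive without TG3 (0.0070 and 0.03).

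Zbtb16, a zinc finger repressor of the BTB family also known as PLZF, was dim but detected on all 12 arrays, with 105.8, 143.6 and 100.3 in TG1, TG2 and TG3, against 187.6, 138.0 and 146.6 in the WT pools in the same order. TG2 lay above WT2. Its difference of -0.26 ± 0.12 (SE) did not pass (adjusted p = 0.147 by limma), was -0.26 on each chip, and kept its sign in all 21 alternative settings (-0.42 to -0.16, adjusted p 0.0561 to 0.366). Cebpd, a relative of Cebpb, read 71.5, 96.9 and 84.1 in TG1, TG2 and TG3, against 101.9, 135.2 and 69.0 in the WT pools in the same order. WT3 was the lowest pool, and the difference of -0.11 ± 0.14 (SE, adjusted p = 0.565 by limma) was 0.15 on chip 1 and -0.38 on chip 2. A second Cebpd probe was detected on 0 of 6 TG arrays and 2 of 6 WT arrays and was not tested.

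**Figure D2:**
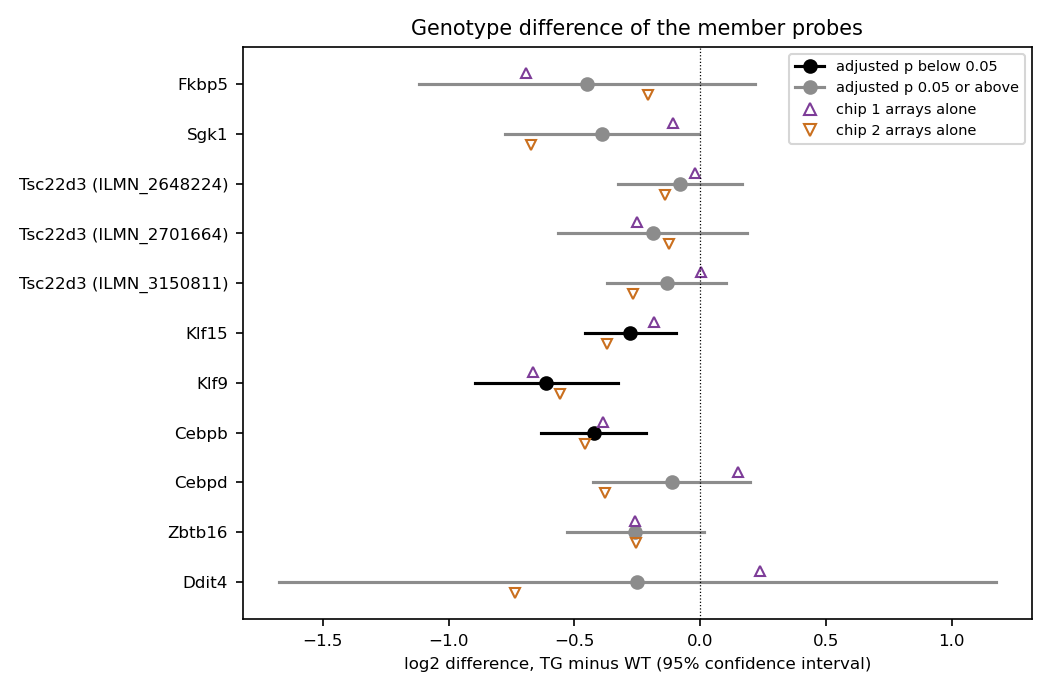
Log2 difference between TG and WT for the 11 kept member probes, with its 95% confidence interval (limma, 3 pools per genotype) and the values of the chip 1 and chip 2 arrays alone. The intervals of Klf15, Klf9 and Cebpb lie well below 0, the upper end of that of Sgk1 lies just below 0 although its adjusted p did not pass, and the chips lie on opposite sides of 0 for Cebpd and Ddit4 and for 1 Tsc22d3 probe.

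How far the genes can be measured thus differed among them. After removal of the mean of each genotype and chip, the standard deviation between the arrays of a pool was 0.07 log2 units for Klf9. For the dim Klf15 it was 0.08 on the normalised scale, which compresses it, and in signal its TG2 arrays read 72.6 and 38.8. It was 0.30 for Fkbp5, 0.43 for Sgk1 and 1.16 for Ddit4. The remaining 6 probes lay between 0.10 and 0.24. That removal takes out any shift shared by the arrays of a genotype on a chip. Without it, the largest difference within a pool was 0.19 for Klf9, 0.37 for Klf15 and 1.07 for Sgk1.

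**Figure D3:**
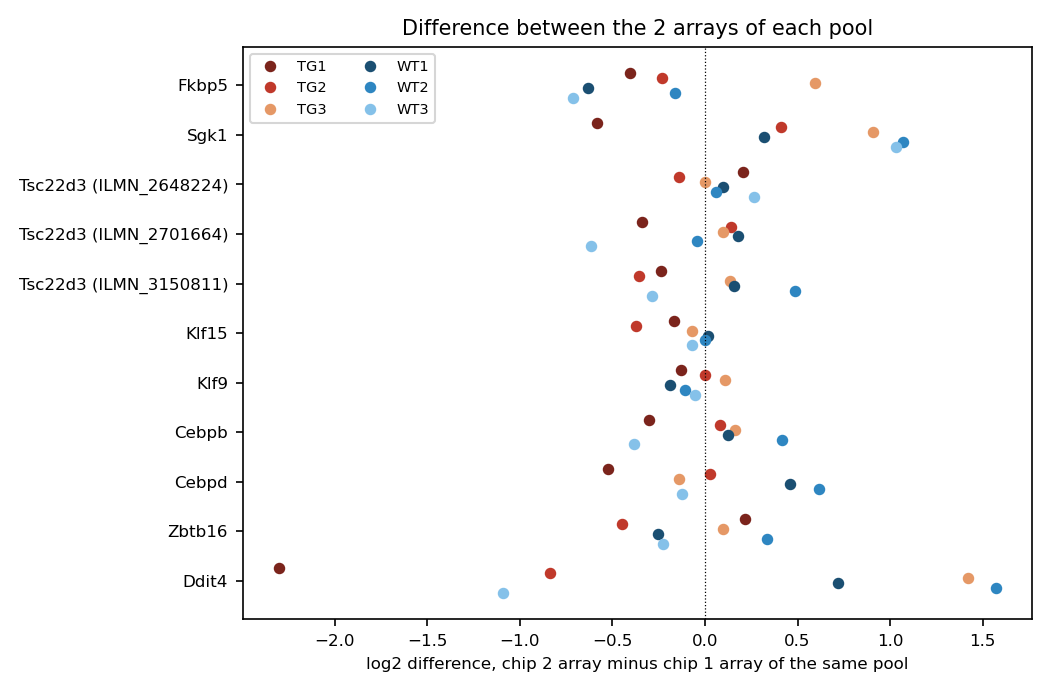
Log2 difference between the chip 2 and the chip 1 array of each pool for the 11 kept member probes, 1 point per pool. Points for Klf9 lie within 0.19 of 0, whereas those for Ddit4 run from -2.30 in TG1 to 1.57 in WT2.

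Upstream of the members, H6pd fell in every setting run, while the rise of Hsd11b1 depended on the setting. Of 12 receptor, ligand supply and chaperone genes on the array, 8 were tested, of which 1 rose (Hsd11b1), 1 fell (H6pd), 1 had probes called in opposite directions (Stub1) and 5 did not pass, where 28% of all 9131 genes with 1 probe each were called (12.1% higher, 15.9% lower). The receptor gene Nr3c1 itself could not be judged, since its probe was detected on 2 of 6 TG arrays and 2 of 6 WT arrays. Hsd11b1, the enzyme that regenerates active glucocorticoid inside cells, read 1024, 866 and 1148 in TG1, TG2 and TG3, against 763, 936 and 754 in the WT pools in the same order, and rose by 0.40 ± 0.12 (log2, SE, adjusted p = 0.0395 by limma), with 3 of 3 kept probes called. In the signals TG2 lay below WT2, and the call was lost without TG1, TG3, WT1 or WT3 (adjusted p 0.0644 to 0.122), on either chip alone (0.114 and 0.0841), in the authors' deposited table (0.159) and under 75th percentile scaling (0.0939). H6pd, which supplies Hsd11b1 with NADPH in the endoplasmic reticulum, read 1072, 1094 and 1059 in TG1, TG2 and TG3, against 1976, 1816 and 1672 in the WT pools in the same order, and fell by 0.60 ± 0.08 (log2, SE, adjusted p = 0.00156). The genotypes were far apart for H6pd, and its call held in all 21 alternatives (-0.73 to -0.55). The 2 probes of Stub1, a ubiquitin ligase that acts with Hsp70 and Hsp90, were called in opposite directions (0.31 and -0.34), and the call of the first was lost with 75th percentile scaling (adjusted p = 0.0570), in the authors' deposited table (0.153) and on chip 1 alone (0.128). The chaperones Fkbp4 (0.10 ± 0.09), Hspa8 (-0.14 ± 0.06), Ptges3 (-0.05 ± 0.08) and Stip1 (-0.05 ± 0.08) did not pass.

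Of 25 other genes that glucocorticoids are known to induce, 21 were tested, of which 9 fell, 1 rose and 11 did not pass, against 15.9% of all genes called lower and 12.1% called higher, with a median log2 difference of -0.27 against -0.02 over all genes. Those with the smallest p were Fbxo32 (-1.46 ± 0.23) and Trim63 (-1.77 ± 0.30), the muscle ubiquitin ligases of atrophy, Foxo1 (-1.05 ± 0.18), a factor that activates both, and Gadd45b (-0.72 ± 0.13), a stress gene that acts in p38 signalling (log2 differences with SE, adjusted p 0.00380 to 0.00628 by limma). The signal of Trim63 was 4589, 5065 and 2514 in TG1, TG2 and TG3, against 18717, 12947 and 11128 in the WT pools in the same order. The 9 falls included Per1, Glul, Pik3r1, Eif4ebp1 and Bcl6, and the rise was that of Cblb, a ubiquitin ligase (0.52 ± 0.13). Mt1 (0.42 ± 0.45) and Mt2 (0.45 ± 0.46), the metallothioneins, and Dusp1 (0.01 ± 0.14), a phosphatase of MAP kinases, did not pass. On chip 1 alone 6 of these genes were called and on chip 2 alone 5. Several of these genes had been seen to fall in earlier results on these arrays, so the count is not independent of those.

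Among 13 targets of Klf15 and partners of the members, 3 fell, 1 rose and 9 did not pass, so 4 of 13 were called where 28% of all genes were, a share near that background. Prodh, the proline dehydrogenase that Klf15 raises, read 127.4, 145.7 and 65.4 in TG1, TG2 and TG3, against 576.0, 631.9 and 467.6 in the WT pools in the same order, and fell by 1.73 ± 0.20 (log2, SE, adjusted p = 0.000994 by limma), with -1.09 at its second probe. No pool of 1 genotype came near the other. Bcat2, the mitochondrial branched-chain aminotransferase and another Klf15 target, differed by -0.34 ± 0.12 and did not pass (adjusted p = 0.0700), and Gpt, alanine aminotransferase, by 0.0049 ± 0.11. Slc2a4, the insulin-responsive glucose transporter, rose (0.37 ± 0.09), although the call was lost when any pool but TG3 was left out (adjusted p 0.0528 to 0.0713). Of the partners of Ddit4 in growth control, Eif4ebp1 (-0.57 ± 0.14), the translation repressor that mTORC1 phosphorylates, fell. Tsc1 was called at 1 of 3 probes (-0.59 ± 0.10), and its other probes differed by -0.10 and -0.12 (adjusted p 0.405 and 0.355). Eif4ebp1, which also stands in the list before, did not pass without WT1 or WT2 (adjusted p 0.0573 and 0.0690). Tsc2, Mtor, Rptor and Rheb did not pass at their brightest probe, although 1 other probe each of Tsc2 (lower in TG) and Mtor (higher, 0.26) did.

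Of 18 paralogs of the members 13 were tested, 2 fell, 0 rose and 11 did not pass by limma (median 0.12), against 28% of all genes called, and the number called ran from 0 to 5 over the alternative settings. Tsc22d2 fell by 0.47 ± 0.09 (log2, SE, adjusted p = 0.00751), with 2 of 2 probes called, while Tsc22d1 (0.25 ± 0.10) and Tsc22d4 (0.12 ± 0.09) did not pass. Ddit4l, the muscle relative of Ddit4, read 6367, 5990 and 4016 in TG1, TG2 and TG3, against 7840, 8593 and 8087 in the WT pools in the same order, and fell by 0.58 ± 0.16 (adjusted p = 0.0328). The call of Ddit4l was lost without TG2, WT1, WT2 or WT3 (adjusted p 0.0516 to 0.113) and on chip 2 alone. Klf13 (0.18 ± 0.08), the closest relative of Klf9, and Cebpg (0.30 ± 0.10, adjusted p = 0.0525) had positive differences that did not pass.

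**Figure D4:**
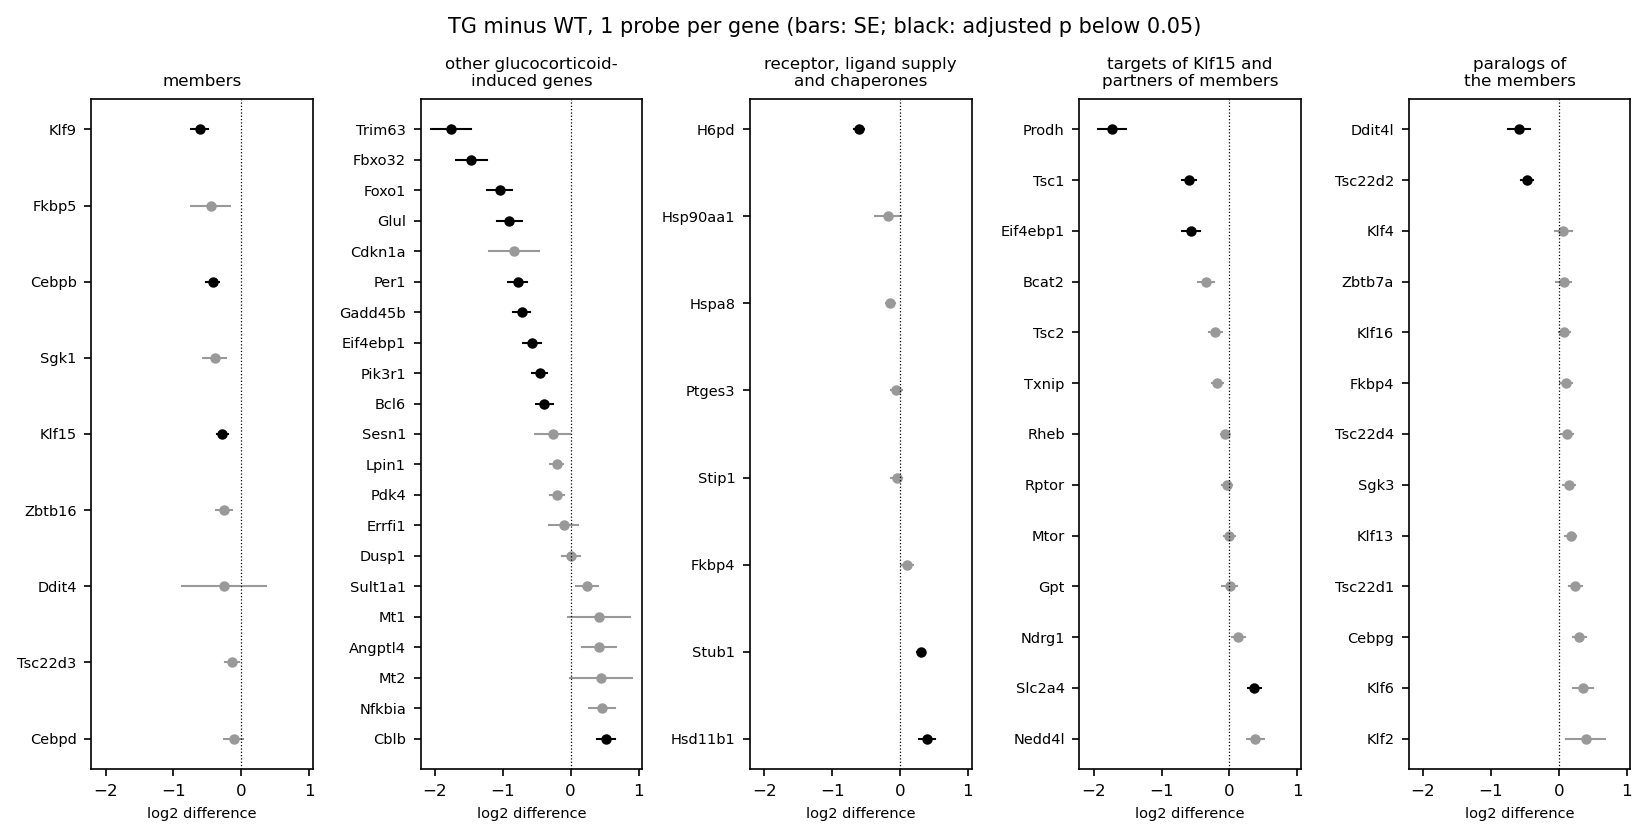
Log2 difference between TG and WT with its SE for every tested gene of the members and of 4 lists, 1 probe per gene, black where the adjusted p was below 0.05. In the list of other glucocorticoid-induced genes 9 of 21 genes are black and negative and 1, Cblb, is black and positive.

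The 5 genes whose pool values lay closest to those of Klf9 were Mapk9, Arhgap20, Cog8, Pick1 and Fbxw5. Each gene's values were set against its own WT mean, and the root mean square difference from Klf9 over the 6 pools was 0.04 to 0.06 log2 units. In Mapk9, the kinase JNK2, the values were -0.47, -0.47 and -0.81 in TG1, TG2 and TG3, against -0.43, -0.50 and -0.90 for Klf9. That TG3 was the lowest pool in each of them follows from how they were chosen.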

How the data were processed

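Per the labels, total RNA of 3 TG and 3 WT pools was labelled with Cy3 and hybridised to 12 Illumina arrays; no scanner software is named in the sources used here. The authors deposited linear intensity for each probe, headed non-normalized per the file headers, but 29.3% to 32.8% of an array's values lay below 0 and all array means were equal, so they had been background-subtracted and scaled before deposit. The deposited detection value, headed a p-value per the file headers, rose with the signal (lowest Spearman 0.975), and 1 minus it was taken as the detection p. The series also has log2 values deposited by the authors. Flooring signals at 1, taking log2 and subtracting first the array's 75th percentile and then the probe's median gave these values with a largest gap of 0.00109; its direction is that of the signal.

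Signals were corrected by normexp (offset 50), quantile-normalised, taken to log2 and averaged over the 2 arrays of a pool. Genotypes were compared with limma 3.58.1 (two-sided) in R 4.3.3 on 6 pools, with p adjusted by Benjamini-Hochberg across the 15708 kept probes (threshold 0.05). The p-values rest on the spread between pool means, which includes differences between arrays and which limma moderates over all kept probes. Probe names came from the platform annotation (34885 probes with 1 symbol, 18 with several, 10378 unnamed here; updating changed 0). A gene in a list was represented by its brightest kept probe. Named were all members, Nr4a1, Nr3c1, up to 4 called genes per list by p, and the 5 genes most like the member with the smallest p; other list genes named were chosen after their values were seen. Members, lists and settings were chosen with earlier results of these data known. Alternatives covered background correction, normalisation, filter, chip, pool number, single pools and single arrays (statmod 1.5.0).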

Additional observations from a re-analysis of the deposited data

Results flagged for a closer look

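Within each genotype the 6 arrays were examined for an array far from the others at the 11 kept member probes (22 groups, of which chance flags about 1 in 20). The chip 2 array of WT3 stood apart at 2 Tsc22d3 probes. It was the highest WT array at ILMN_2648224 (log2 7.83, the others 7.55 to 7.64) and the lowest at ILMN_2701664 (8.48, the others 8.87 to 9.10). With WT3 taken from its chip 1 array only, chosen after seeing the data, 3 member probes were called, as with both arrays.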

How the results depend on the processing

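Over 21 alternative settings for each of 11 member probes, 205 of 231 values kept their sign and their side of the threshold, 12 lost a call, 2 gained one and 12 changed sign. The member probes called, 3 in all, were 1 in the authors' deposited table and 1 without WT2, with a range of 1 to 3 over single pools left out. All calls, 4059, were 1454 on chip 2 alone and ranged from 2060 to 4216 over single pools left out. With the 12 arrays taken as separate samples and the chip as a block, chosen after seeing the data, 5511 were called. The differences that changed sign were those of Tsc22d3 (ILMN_2648224 from -0.17 to 0.027 and ILMN_2701664 from -0.34 to 0.0070 over single pools left out, 0.043 and 0.037 with WT1 from chip 1 and without TG3, and ILMN_3150811 0.0014 on chip 1 alone), Cebpd (0.15 on chip 1 alone, -0.23 to 0.024 over single pools) and Ddit4 (0.24 on chip 1 alone, 0.32 with WT1 from chip 1 and without TG3, -0.94 to 0.20 over single pools); the cause was not tested. The correlations of TG with WT deviations were -0.42, 0.34 and -0.12 for pool numbers 1, 2 and 3. Deviations from a mean of 3 pools are not independent, so these values cannot tell whether the numbers pair the genotypes. With the pool number as a replicate block 3103 probes were called, and among members Sgk1 (adjusted p = 0.0383), Klf9 and Cebpb, but not Klf15 (0.0560). Of 273 values for 13 named list genes, 237 kept their call, 36 lost it and none changed sign. Dim probes such as those of Klf15, Cebpd and Zbtb16 are compressed by the background correction.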
